A study of Mus musculus with 6 samples.

Results

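Plvap and the caveolae genes Cav1, Cav2, Cav3, Ptrf and Ehd2 were described in whole mouse hearts at embryonic day 11.5. The 6 genes were taken by symbol from a table of 38918 genes, and all 6 were found. Conditional knockout embryos carried 2 floxed alleles of Tie2, the receptor gene listed as Tek, together with Nfatc1Cre, a Cre recombinase under control of Nfatc1, a gene of the endocardium. Control littermates carried 1 floxed and 1 wild-type Tie2 allele, and their label names no Cre. The strain background was C57/BL6 in both groups. Each group had 3 libraries. The series text says that RNA of 18 hearts per genotype was pooled before it was divided among them, while levels of Afp and a Y-linked gene, given further on, differ between libraries of a genotype, so the number of hearts behind a library is unclear. The p-values therefore reflect library-to-library spread, which may be technical.

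Caveolae are flask-shaped pits of the plasma membrane, abundant in endothelium and muscle, that serve membrane buffering, signalling and uptake. Caveolins insert into the inner membrane leaflet, and cavins, of which Ptrf (now named Cavin1) is the one that every caveola needs, form a coat over them. In many endothelia the neck of a caveola is closed by a thin diaphragm made of Plvap, which also spans fenestrae and transendothelial channels and controls the passage of plasma proteins. In the mouse, Plvap is also known as a gene of the endocardium.

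The 3 caveolin paralogs lie on chromosome 6 of GRCm38, on the plus strand. Cav2 spans 17281185 to 17289115 and Cav1 17306335 to 17341452, with 17219 bases between them, while Cav3 spans 112459505 to 112472872, 95.1 megabases beyond Cav1. The other genes are Plvap on chromosome 8 (71497765 to 71511752), Ptrf on chromosome 11 (100956733 to 100970887) and Ehd2 on chromosome 7 (15946958 to 15967567), all on the minus strand, and all 6 are protein coding. The 250 bases before a RefSeq start site (GRCm38.p6) are given for the caveolins, because these paralogs stood at different levels in the same hearts and did not all lie on the same side of 0 in the comparison. None of their changes passed the test, so the signs do not show that the paralogs moved apart. The windows cover chr6:17306085-17306334 for Cav1, chr6:17280935-17281184 for Cav2 and chr6:112459255-112459504 for Cav3. Capitals mark matches to any of 8 short motifs sought on both strands.
Cav1: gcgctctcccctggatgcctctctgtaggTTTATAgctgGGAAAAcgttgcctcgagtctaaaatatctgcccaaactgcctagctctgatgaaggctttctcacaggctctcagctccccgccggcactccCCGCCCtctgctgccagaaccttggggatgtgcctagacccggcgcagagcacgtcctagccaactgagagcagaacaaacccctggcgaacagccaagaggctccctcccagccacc
Cav2: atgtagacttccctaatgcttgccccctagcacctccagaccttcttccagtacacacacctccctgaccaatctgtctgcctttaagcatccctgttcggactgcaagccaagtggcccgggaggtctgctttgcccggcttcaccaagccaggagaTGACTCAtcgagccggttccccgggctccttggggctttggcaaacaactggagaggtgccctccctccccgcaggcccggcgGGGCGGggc
Cav3: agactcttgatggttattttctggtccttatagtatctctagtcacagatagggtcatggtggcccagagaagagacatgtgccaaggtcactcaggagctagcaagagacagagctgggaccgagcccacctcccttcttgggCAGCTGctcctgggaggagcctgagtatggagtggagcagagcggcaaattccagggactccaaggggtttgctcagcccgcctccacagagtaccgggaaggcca

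One motif was GGGCGG, the GC box bound by Sp factors. CAGCTG is an E-box of muscle factors, and TGACTCA is the site of AP-1. Of vessel regulators, CGGAAG stood for ETS factors, TGTTTAC for forkhead factors and AGATAA for factors of the Gata family. GGAAAA stood for NFAT factors, and TATAAA for the core promoter box. For Cav1 the table has 2 windows, and the one at the upstream start is shown. On the opposite strand it held GGGCGG, printed as CCGCCC, and TATAAA, printed as TTTATA, and on the printed strand it held GGAAAA. The leftmost printed bases of these matches lay 118, 221 and 211 bases before the start. The window of the other start (chr6:17307390-17307639, GC content 60.8%) held none of the 8 motifs. The Cav2 window held TGACTCA at 92 bases and GGGCGG at 9 bases before the start, and the Cav3 window held CAGCTG at 106 bases. No match overlapped another. Among all 32851 windows of that length, GGGCGG occurred in 32.7%, GGAAAA in 20.4%, CAGCTG in 13.0%, TATAAA in 12.4% and TGACTCA in 4.46%. The GC content was 59.6% for the Cav1 window shown, 62.0% for Cav2 and 56.0% for Cav3, against a median of 52.4% over all windows. These matches describe the letters of the windows and were not tested for function. The RefSeq table held windows for 5 of the 6 genes, all but Plvap.

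Levels are FPKM, which scales fragments to the length of a transcript and the sequenced total. Tek checked the labels. It stood at 3.38, 3.13 and 3.13 FPKM in conditional knockout hearts and at 22.4, 25.7 and 16.6 FPKM in control hearts, a log2 fold change of -2.40 ± 0.15 (SE, limma, adjusted p = 0.00131). The libraries summed to 531209 to 582261 FPKM in conditional knockouts and to 481334 to 534409 FPKM in controls, and the read depth is unknown. Cardiomyocyte genes were abundant in both groups (9 genes, summed level 13004 to 20453 FPKM in conditional knockouts and 18895 to 20085 FPKM in controls). Libraries of 1 genotype differed from each other: the liver gene Afp ranged from 0.249 to 123 FPKM among conditional knockouts and from 11.2 to 51.5 FPKM among controls, and the Y-linked gene Eif2s3y from 34.1 to 55.6 FPKM among conditional knockouts and from 17.7 to 40.96 FPKM among controls. The log2 fold changes of all 4 Y-linked genes examined lay above 0 (median 0.62), with overlap between the groups, and none was called. Of the 9 cardiomyocyte genes, 7 had log2 fold changes below 0 and 2 above, with a median of -0.16, and none was called. Myl2, the most abundant cardiomyocyte gene, stood at -0.16 ± 0.22 (log2 fold change, SE) and did not pass. The 6 erythroid genes summed to 35076 to 53572 FPKM in conditional knockouts and 7299 to 11581 FPKM in controls, but the embryonic globin genes Hbb-y and Hba-x were listed at 0 in all 3 controls, where a 0 can be a failed estimate. Both were called higher and are among the 7 genes called higher over the whole table. The 6 genes described here were above 0 in every library.

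Plvap fell and was the member that passed the test. The diaphragm gene stood at 27.4, 26.2 and 22.6 FPKM in conditional knockout hearts, against 66.9, 61.6 and 53.6 FPKM in control hearts. Every conditional knockout library lay below every control library, with a wide gap between the groups. The means were 25.4 ± 2.51 FPKM in conditional knockouts and 60.7 ± 6.67 FPKM in controls (SD, n = 3 each), 2.39-fold lower in conditional knockouts. On the log2(FPKM + 1) scale the fold change, conditional knockout minus control, was -1.22 ± 0.12 (SE, 95% interval -1.51 to -0.93, limma adjusted p = 0.0164 over 12988 genes). A log2 fold change below that of Plvap was found for 41 of those genes.

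The call, but not the direction or size, depended on single libraries. The adjusted p was 0.127 without control replicate 2 and 0.0546, 0.0736 and 0.0918 without conditional knockout replicates 1, 2 and 3, while with each library left out in turn the log2 fold change lay between -1.31 and -1.14. With the mean level of 4 Y-linked genes as a covariate it was -1.02 (adjusted p = 0.211), and within replicates 2 and 3 alone -1.21 (adjusted p = 0.0622). The Y-linked level was itself higher on average in conditional knockouts, so the fit with that covariate cannot fully separate it from genotype.

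**Figure D1:**
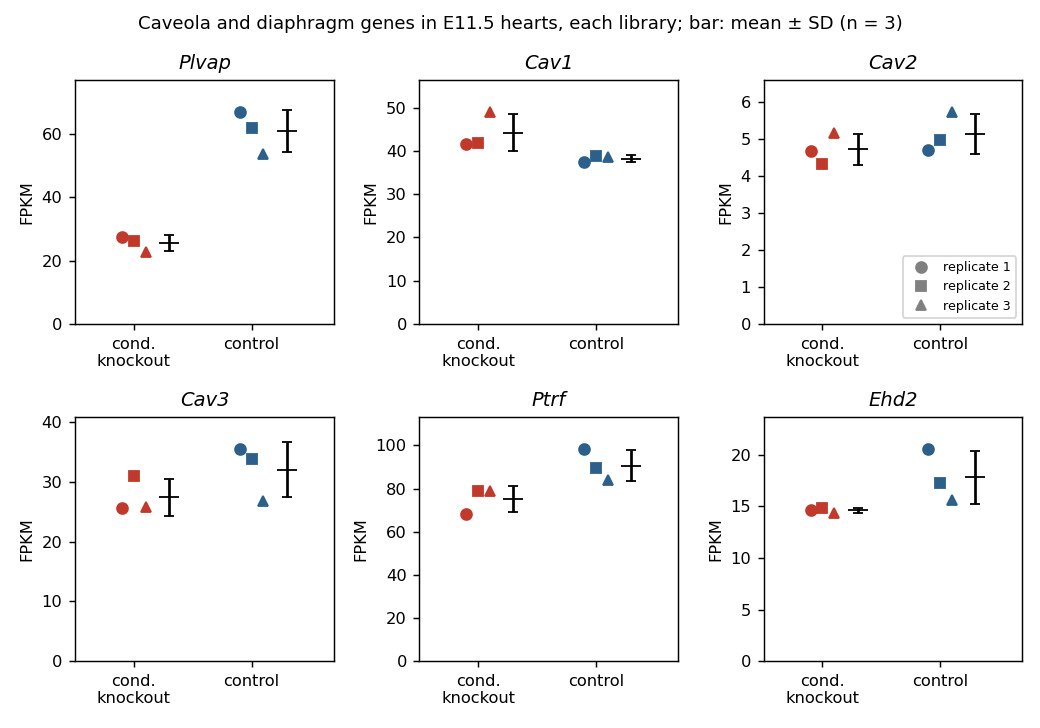
FPKM of each gene in each library, with conditional knockout hearts on the left (red) and control hearts on the right (blue) and the mean ± SD (n = 3) beside the points; each axis starts at 0. Plvap separates widely, Cav1 lies slightly above the controls, Ptrf and Ehd2 lie below them by a narrow margin, and Cav2 and Cav3 overlap.

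Cav1, the main structural caveolin outside striated muscle, lay in the opposite direction to Plvap and did not pass. It stood at 41.6, 41.9 and 49.1 FPKM in conditional knockout hearts and at 37.4, 38.7 and 38.6 FPKM in control hearts. All 3 conditional knockout libraries lay above all 3 controls, and replicate 3 was highest. The means were 44.2 ± 4.24 FPKM in conditional knockouts and 38.2 ± 0.723 FPKM in controls (SD, n = 3 each). The change was 0.20 ± 0.10 (log2, SE, 95% interval -0.04 to 0.44, limma adjusted p = 0.778).

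Cav2, which assembles with Cav1 and depends on it to reach the cell surface, was the lowest of the 6 genes. Its values were 4.68, 4.32 and 5.16 FPKM in conditional knockout hearts and 4.69, 4.96 and 5.74 FPKM in control hearts, and the groups overlapped. The change was -0.10 ± 0.11 (log2, SE, 95% interval -0.36 to 0.16, limma adjusted p = 0.873).

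Cav3, the caveolin of cardiac and skeletal muscle, stood at 25.5, 30.9 and 25.7 FPKM in conditional knockout hearts and at 35.4, 33.8 and 26.7 FPKM in control hearts. The groups overlapped, with control replicate 3 close to the lowest conditional knockout libraries. The change was -0.21 ± 0.14 (log2, SE, 95% interval -0.54 to 0.11, limma adjusted p = 0.808).

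Ptrf, the coat protein gene, was the most abundant member. It stood at 68.1, 78.8 and 78.7 FPKM in conditional knockout hearts and at 98.4, 89.4 and 84.0 FPKM in control hearts. The groups did not overlap, but the highest conditional knockout and the lowest control library were close. The change was -0.27 ± 0.11 (log2, SE, 95% interval -0.53 to -0.004, limma adjusted p = 0.742), an interval for the single gene that is not adjusted for the number of genes.

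Ehd2, an ATPase that forms a ring at the neck and holds caveolae at the membrane, stood at 14.6, 14.8 and 14.4 FPKM in conditional knockout hearts and at 20.6, 17.2 and 15.6 FPKM in control hearts. The conditional knockout libraries were nearly equal, and all lay below the more widely spread controls. The change was -0.26 ± 0.11 (log2, SE, 95% interval -0.53 to 0.01, limma adjusted p = 0.768).

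Counted together, 1 of the 6 genes was called lower, where 0.123% of all genes tested were, and none was called higher, where 0.0539% were. All 3 conditional knockout libraries lay below all controls for Plvap, Ptrf and Ehd2, 3 of 6 genes against 8.17% of all genes tested, and above all controls for Cav1, 1 of 6 against 5.23%. Such separation was not particular to the 6 genes. Of 23 genes of endothelium in general, 14 lay below all controls in this way and 2 above, and of 10 endocardial genes 7 lay below and 0 above. The median log2 fold change of the 6 genes was -0.24, and that of all genes tested was -0.01. Cav1, Cav2, Cav3, Ptrf and Ehd2 kept the sign of their change, and missed the threshold, in every alternative setting run. Their sizes were less stable: with each library left out in turn, the log2 fold change lay between 0.12 and 0.24 for Cav1, -0.15 and -0.03 for Cav2, -0.33 and -0.14 for Cav3, -0.32 and -0.20 for Ptrf, and -0.34 and -0.16 for Ehd2. The smallest size for Cav1 came without conditional knockout replicate 3, for Cav2 without control replicate 3, and for Cav3 and Ehd2 without control replicate 1, and with the Y-linked covariate Cav3 stood at -0.02, Ehd2 at -0.10 and Cav2 at -0.24. With 3 libraries per group these misses do not show that the genes were unchanged.

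The order of levels differed between the groups because of Plvap. In conditional knockout hearts the order of mean FPKM was Ptrf at 75.2, Cav1 at 44.2, Cav3 at 27.4, Plvap at 25.4, Ehd2 at 14.6 and Cav2 at 4.72. Cav3 and Plvap overlapped there, and the other neighbours in that order did not. In control hearts the order was Ptrf at 90.6, Plvap at 60.7, Cav1 at 38.2, Cav3 at 32.0, Ehd2 at 17.8 and Cav2 at 5.13, and no neighbours overlapped.

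Ratios of FPKM within a library compare genes free of any scaling between libraries. Plvap to Cav1 was 0.660, 0.626 and 0.461 in conditional knockout hearts and 1.79, 1.59 and 1.39 in control hearts. Plvap thus stood above Cav1 in all 3 controls and below it in all 3 conditional knockouts. Ptrf to Cav1 was 1.64, 1.88 and 1.60 in conditional knockout hearts and 2.63, 2.31 and 2.18 in control hearts, again without overlap. Cav2 to Cav1 was 0.107 ± 0.00486 in conditional knockouts and 0.134 ± 0.0128 in controls, and Ehd2 to Cav1 was 0.333 ± 0.0349 in conditional knockouts and 0.466 ± 0.0749 in controls (SD, n = 3 each). All 4 ratios were lower in conditional knockouts in every library, and Cav1 is the denominator of each. Plvap, Ptrf and Ehd2 lay below all controls and Cav1 above them. The lack of overlap in their ratios to Cav1 follows from those levels and is no further result.

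The hearts are a mixture of cells, and in bulk samples fewer cells of a type and less RNA per cell cannot be told apart. The summed level of 23 genes of endothelium in general was 407 to 454 FPKM in conditional knockout hearts and 518 to 572 FPKM in control hearts. Of these genes, Mmrn2, an extracellular matrix gene of endothelium, was called lower at -0.99 ± 0.10 (SE, limma adjusted p = 0.0171), 22 did not pass, and none was at 0. The median log2 fold change was -0.29, within a range from -0.99 to 0.74, with 19 genes below 0 and 4 above. Eng, the TGF-beta co-receptor gene and by its mean over all 6 libraries the most abundant of the 23, stood at -0.56 ± 0.15 (log2 fold change, SE, adjusted p = 0.533). No gene of the list had a log2 fold change as low as that of Plvap, while with the Y-linked covariate Mmrn2 stood at -1.07 and Plvap at -1.02.

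Each gene was also set against the mean log2(FPKM + 1) of the 23 endothelial genes in its own library, although these genes differed in their changes. Plvap lay above that mean by 1.02, 0.88 and 0.78 in conditional knockout hearts and by 2.02, 1.80 and 1.69 in control hearts. The difference was -0.94 on the log2 scale, with all conditional knockout libraries below all controls (exact two-sided permutation test, p = 0.1, the smallest that 3 against 3 libraries allow). Cav1 lay above the mean by 1.60, 1.54 and 1.87 in conditional knockout hearts and by 1.20, 1.14 and 1.22 in control hearts, without overlap and with a difference of 0.48. Ptrf, Ehd2, Cav3 and Cav2 differed by 0.02, 0.02, 0.07 and 0.18 on this scale, and their groups overlapped. Caveolae are also abundant in muscle, and Cav3 is the muscle caveolin, so small values here do not show that a gene followed endothelium. The list mean itself was 3.82 in conditional knockouts and 4.11 in controls, a difference of -0.28 that enters every value on this scale.

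**Figure D2:**
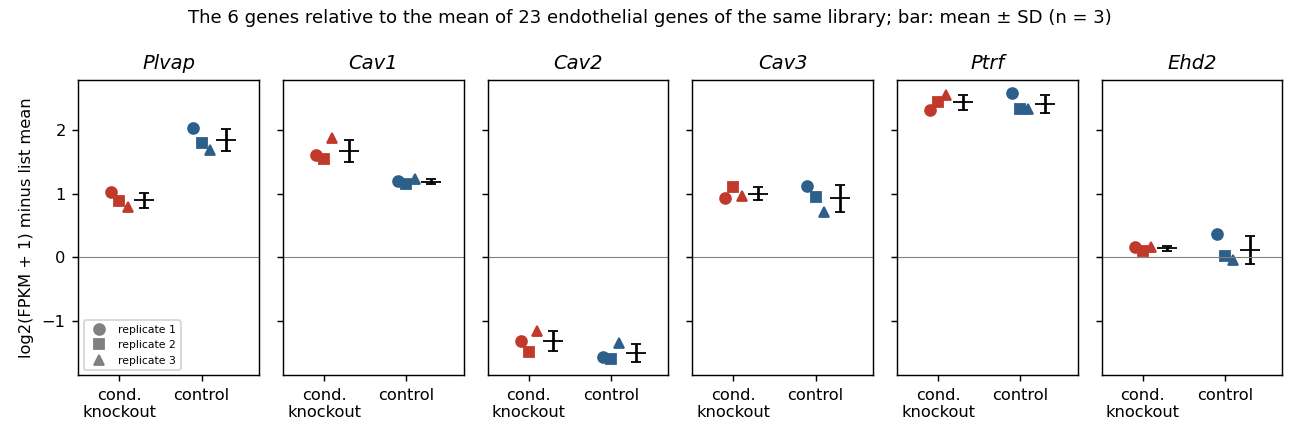
Log2(FPKM + 1) of each gene minus the mean of 23 endothelial genes of the same library, with conditional knockout hearts on the left (red), control hearts on the right (blue) and mean ± SD (n = 3). Plvap is lower by 0.94 and Cav1 higher by 0.48 in conditional knockouts without overlap, while Ptrf, Ehd2, Cav3 and Cav2 overlap between the groups. The list mean itself differed by -0.28 between conditional knockouts and controls.

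Of the 10 genes of the endocardial list, 4 were called lower, where 0.123% of all genes tested were. None was called higher, where 0.0539% were, and 6 did not pass. The list had a median log2 fold change of -0.53. Its summed level was 151 to 179 FPKM in conditional knockout hearts and 232 to 279 FPKM in control hearts. Called genes were Tmem100, a BMP-responsive membrane protein gene, at -1.35 ± 0.15 (adjusted p = 0.0245), Npr3, the natriuretic peptide clearance receptor gene, at -1.15 ± 0.09 (0.00421), and Gpr126, an adhesion receptor gene, at -1.01 ± 0.11 (0.0245), with SE and limma adjusted p. The endothelin receptor gene Ednrb was the other, at 20.4 ± 1.31 FPKM in conditional knockouts and 41.9 ± 1.58 FPKM in controls (SD, n = 3 each, adjusted p = 0.0113). Hapln1, a link protein gene of the cardiac jelly and the most abundant of the list, stood at -0.23 ± 0.21 (log2 fold change, SE, adjusted p = 0.843). Against the mean of this list, Plvap differed by -0.55. With the replicate block and within replicates 2 and 3 there were 3 lower calls each, and with the Y-linked covariate none. These genes were known to be lower in these libraries when the list was chosen, so the list is no independent evidence of a direction.

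Of 15 other genes of the caveola machinery, 13 reached the mean of 1 FPKM needed for the test, and none was called in either direction. The median log2 fold change was -0.12, with 9 genes below 0 and 4 above. Sdpr (Cavin2), the cavin that is prominent in endothelium, stood at 32.1, 40.3 and 37.9 FPKM in conditional knockout hearts and at 46.2, 48.7 and 44.8 FPKM in control hearts, without overlap (log2 fold change -0.34 ± 0.11, SE, limma adjusted p = 0.669). Prkcdbp (Cavin3), another coat subunit gene, stood at 26.4, 35.5 and 28.0 FPKM in conditional knockout hearts and at 41.6, 35.9 and 32.2 FPKM in control hearts, with overlap (-0.28 ± 0.15, SE, adjusted p = 0.778). Ehd3, a paralog of Ehd2, had the most positive value at 0.23 ± 0.19 (SE, adjusted p = 0.817).

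The remaining machinery genes spanned a narrow range. Pacsin2, a membrane-curving F-BAR protein gene, was the other one besides Sdpr whose libraries did not overlap. It stood at 21.9 ± 1.87 FPKM in conditional knockouts and 25.5 ± 1.32 FPKM in controls (SD, n = 3 each). Sdpr and Pacsin2 lay below all controls, 2 of 13 genes tested against 8.17% of all genes tested. Above all controls lay 0 of the 13, against 5.23%. Murc (Cavin4), the muscle cavin, was under the filter at 0.824 ± 0.162 FPKM in conditional knockouts and 0.914 ± 0.353 FPKM in controls, as was the neuronal paralog Pacsin1 at 0.530 ± 0.0454 FPKM in conditional knockouts and 0.581 ± 0.103 FPKM in controls (SD, n = 3 each). The other machinery genes (Pacsin3, Ehd1, Ehd4, Dnm2, Ror1, Flna, Src, Flot1 and Flot2) had log2 fold changes between -0.22 and 0.15, and their groups overlapped.

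**Figure D3:**
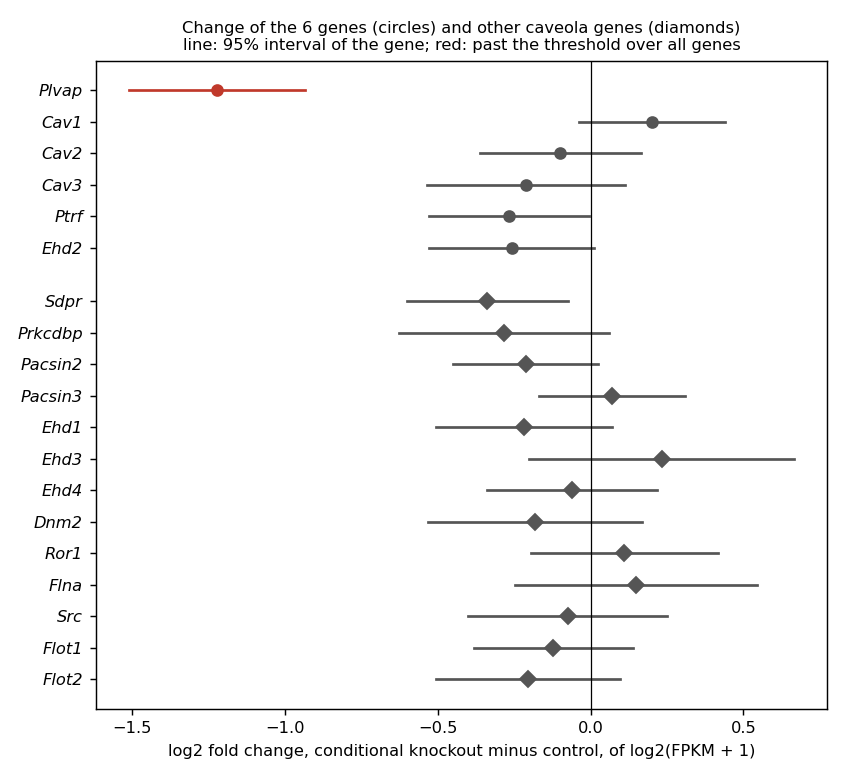
Log2 fold change of log2(FPKM + 1), conditional knockout minus control, for the 6 genes (circles) and 13 other caveola genes (diamonds), with the 95% interval of each gene. Plvap at -1.22 is the gene past the threshold, shown in red; every other point lies between -0.34 and 0.23.

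Among 9 genes for proteins described in endothelial caveolae, 8 were tested and none was called, with a median log2 fold change of 0.08. Nos3, the endothelial nitric oxide synthase gene whose protein is held inactive by caveolin 1, stood at 5.57, 6.64 and 5.57 FPKM in conditional knockout hearts and at 11.8, 12.0 and 10.1 FPKM in control hearts. These libraries did not overlap, and the change of -0.83 ± 0.11 missed the threshold (SE, limma adjusted p = 0.0582). Aqp1, a water channel gene, stood at -0.36 ± 0.13 (log2 fold change, SE, adjusted p = 0.742). Cd36, a fatty acid and thrombospondin receptor gene, stood at 0.21 ± 0.10 (log2 fold change, SE, adjusted p = 0.772), the most positive of the list.

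None of 6 muscle membrane genes described with caveolin 3 was called (median log2 fold change -0.06). Dysf, the dysferlin gene of membrane repair, had the most negative value at -0.33 ± 0.10 (SE, limma adjusted p = 0.638). Trim72, another repair gene, and Dmd, the dystrophin gene, had -0.15 ± 0.16 and -0.12 ± 0.12 (SE, adjusted p = 0.867 and 0.845). Of 6 genes of tight brain vessels, which lack Plvap in the adult, 3 were tested and none was called. The tight junction gene Cldn5 stood at a log2 fold change of 0.43 ± 0.31 (SE, limma adjusted p = 0.815). Its levels were 5.22, 2.46 and 1.67 FPKM in conditional knockouts, highest in replicate 1, and 2.43, 1.78 and 1.46 FPKM in controls. The efflux pump gene Abcg2 stood at 0.02 ± 0.15 and the glucose transporter gene Slc2a1 at -0.03 ± 0.15 (SE, adjusted p = 0.991 and 0.979). Which cells of the heart gave the Abcg2 and Slc2a1 levels was not tested.

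**Figure D4:**
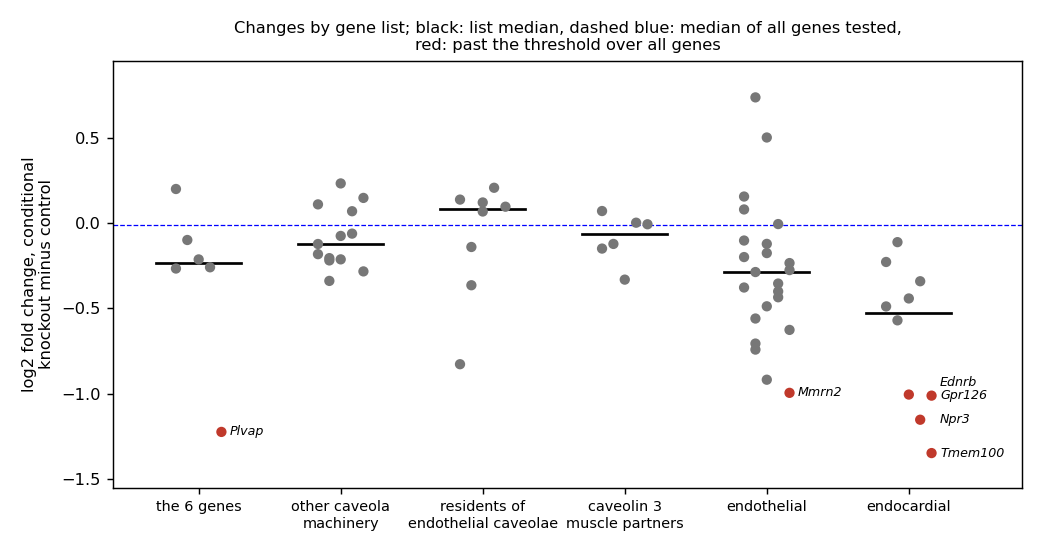
Log2 fold change, conditional knockout minus control, of each tested gene by list, with the list median in black and the median of all genes tested as a dashed line. Plvap at -1.22 lies apart from the other caveola genes and close to the called endocardial genes, the lowest of which, Tmem100, lies at -1.35. The endocardial genes were known to be lower in these libraries when their list was chosen.

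Other cells of the heart also hold caveolae. The summed smooth muscle and mesenchyme list (9 genes, none called) was 1060 to 1329 FPKM in conditional knockout hearts and 1276 to 1632 FPKM in control hearts, and the epicardial list (7 of 8 tested, none called) was 194 to 196 FPKM in conditional knockouts and 192 to 208 FPKM in controls. The list of coronary and sinus venosus endothelium (4 of 5 tested, none called) summed to 39.7 to 40.5 FPKM in conditional knockouts and 31.8 to 38.3 FPKM in controls. Nr2f2 made up most of this coronary sum. The macrophage list (4 of 7 tested, none called) summed to 22.3 to 24.5 FPKM in conditional knockouts and 25.7 to 33.3 FPKM in controls, and Lyz2 made up most of that sum. Both signs occurred within each list: log2 fold changes lay above 0 for 5 of 9 smooth muscle and mesenchyme genes (median 0.07), 4 of 7 epicardial genes (0.02), 3 of 4 coronary genes (0.34) and 3 of 4 macrophage genes (0.22). The most abundant genes, Acta2 of smooth muscle, Upk3b of epicardium, Nr2f2 of veins and Lyz2 of macrophages, had log2 fold changes of -0.32 ± 0.21, -0.19 ± 0.12, 0.19 ± 0.10 and -0.54 ± 0.13 (SE). No gene of these lists was at 0 in every library, and the part of these cells in the values of Cav1, Ptrf and Ehd2 was not tested.

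The genes most like Plvap over the 6 libraries, by Pearson correlation of log2(FPKM + 1) among 8720 other genes averaging at least 5 FPKM, were Apba3 (r = 0.997), Gpr182 (0.992), Npr3 (0.991), Gja4 (0.990) and Arhgef10l (0.990). The libraries share genotype groups, so these values describe the pattern and are not tested, and 2.35% of the genes reached 0.9. Gpr182, an endothelial receptor gene, averaged 5.30 FPKM in conditional knockouts and 16.2 FPKM in controls, and Gja4, a connexin gene of arteries, averaged 4.84 FPKM in conditional knockouts and 15.2 FPKM in controls. Apba3 and Arhgef10l followed the same order of libraries with small changes of -0.30 and -0.22 (log2 fold change, limma adjusted p = 0.55 and 0.742). Among the other members, r with Plvap was 0.84 for Ehd2, 0.82 for Ptrf, 0.68 for Cav3, 0.30 for Cav2 and -0.86 for Cav1.

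The genes most like Cav1 by the same measure were Eogt (0.996), Lrch2 (0.990), Trim44 (0.974), Nup160 (0.973) and Acsl3 (0.967), and 0.528% of the genes reached 0.9. Their log2 fold changes lay between 0.09 and 0.31, none was called, and in each of them conditional knockout replicate 3 had the highest level, as for Cav1. Cav2, the neighbour of Cav1 on chromosome 6, had an r of -0.008 with it.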

How the data were processed

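RNA of whole hearts was sequenced from libraries made with a TruSeq kit, per the labels' protocols. The authors deposited FPKM values with no counts, so depth and counting error are unknown. Genome build mm10 and the tools TopHat2 2.0.9, Cufflinks 2.2.1, HTSeq and Cuffdiff are listed without their roles, per the submitters' processing notes. Not given in the sources used here were the strand setting, the handling of reads shared by paralogs and the release of the annotation.

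Values were analysed as log2(FPKM + 1), which understates the change of low genes, over the 12988 genes that averaged at least 1 FPKM. The test was limma (3.58.1, R 4.3.3) with an intensity trend over all 6 libraries, no block and Benjamini-Hochberg adjustment over all genes at 0.05. It was tested on simulated data. Permutation tests used SciPy 1.17.1. Positions come from GENCODE M21 (GRCm38, the assembly of mm10), which held 37607 of the 38918 identifiers, and promoter sequences from RefSeq (GRCm38.p6).

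The 6 genes and the gene lists were chosen with earlier results of these data known. The genes named from a list are those past the threshold, otherwise the 3 largest changes (caveola lists) or, beside the called genes, the most abundant member (cell type lists). Pacsin2, Murc and Pacsin1 were named after their values were seen. Without a library, the filter was applied to the remaining libraries.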

Additional observations from a re-analysis of the deposited data

How the results depend on the processing

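All 6 genes kept the sign of their change in every alternative run, and Cav1, Cav2, Cav3, Ptrf and Ehd2 missed the threshold in each of them (Cav2 is not tested at a mean of at least 5 FPKM). Plvap kept its call in 10 of 16 alternatives. Its log2 fold change was -1.02 when the Y-linked level was a covariate and -1.21 for replicates 2 and 3 alone, where the call ended, and without any 1 library it lay between -1.31 and -1.14, with the call kept in 2 of 6 fits. A fit with fewer libraries has fewer residual degrees of freedom, and otherwise the cause was not tested. Over the whole table, 16 genes were lower and 7 higher, with Hbb-y and Hba-x among the higher genes. There were 7 lower genes with no filter on low values, 8 for replicates 2 and 3 alone, 1 with Y-linked level as covariate, and 4 to 9 without any 1 library, where 6 to 11 were higher.

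Plvap relative to the endothelial genes differed by -0.94, by -0.76 against the list's median and by -0.55 against the endocardial list. Without any 1 library it lay between -1.01 and -0.85.

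Same-numbered libraries deviated together at correlations of 0.19, 0.031 and 0.23 for replicates 1, 2 and 3 over the genes tested, and at 0.27, 0.11 and 0.44 over the 12805 of them above 0 in every library. Over the genes tested, control replicate 2 correlated best with conditional knockout replicate 3 (0.056), and over those above 0 each library correlated best with its own number. Whether the numbers pair the libraries thus depends on the genes used, and they were not taken as pairs. With the replicate block, 11 genes were lower and 6 higher, and Plvap had -1.22 (adjusted p = 0.0128), with no call of the 6 genes changed.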
